A study of Rattus norvegicus with 16 samples.

Results

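The output arm of the circadian clock was followed in rat liver through 7 genes, Dbp, Tef, Nfil3, Ciart, Bhlhe40, Usp2 and Rgs16, of the 17055 gene symbols in the count files. They were taken by name as PAR bZIP transcription factors and rhythmic liver outputs. These genes and the gene lists used below were chosen with earlier results of these data known. Hlf and Bhlhe41, which belong to the same families, are not analysed here. Ciart was found under its earlier symbol, RGD1566380, which RefSeq lists as a synonym. Usp2 and Rgs16 were chosen by their log2 fold changes between septic and control libraries of this same series, where both fell strongly, so their values are given as descriptions and no test is attached to them. The other 5 genes were tested in every comparison, with adjustment over all genes.

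The livers came from 48 male Sprague-Dawley rats aged 10 weeks, 12 in each of 4 groups, all breathing pure oxygen and all opened at the abdomen. In the Isoflurane-Sepsis and Propofol-Sepsis groups the cecum was ligated and punctured (CLP), which leaks gut bacteria into the abdomen; in the isoflurane control and propofol control groups it was brought out and put back. Isoflurane rats were induced and kept asleep with isoflurane, started at 1.5% for maintenance, while propofol rats were induced with ketamine and xylazine and kept asleep with propofol. Livers were taken 8 h after the abdomen was opened, and each of the 16 libraries was made from tissue pooled from 3 rats, giving 4 libraries per group. Within an anesthetic, rats went to control and CLP in turn. The clock hour of surgery or collection is not given in the sources used here. A spread given here is between pools, not between rats, and p-values measure only that spread.

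The mammalian clock is a feedback loop in which Clock and Bmal1 (gene Arntl) switch on genes that carry E-boxes, among them the Per and Cry repressors that then shut Clock and Bmal1 down. The PAR bZIP activators Dbp, Tef and Hlf are themselves driven by the loop and carry the rhythm outward through D-boxes, the sites at which they compete with the repressor Nfil3. In liver this arm is known for driving daily rhythms of drug and bile acid metabolism. Ciart and Bhlhe40 are repressors of Clock and Bmal1, so they are both outputs of the loop and brakes on it. Usp2 is a deubiquitinase and Rgs16 a brake on G protein signalling, and both have strong daily rhythms in rodent liver.

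All 7 genes matched the RefSeq promoter table of build GRCr8, which holds the 250 bases before and 50 bases after each start of transcription. The E-box CACGTG was found in 3 of them, namely Ciart, Tef and Bhlhe40, against 6.42% of 33469 promoters of the same length. Ciart held it at 93, 35 and 21 bases before the start, Tef at 198 bases and Bhlhe40 at 220 bases. Dbp, Nfil3, Usp2 and Rgs16 held no match in this window, and no member held the variant CACGTT (4.83% of promoters), the D-box TTANGTAA (2.24%) or the ROR element (0.245%), each searched on both strands. The promoters with a match are shown with the E-boxes in capitals, followed by that of Dbp, the tested gene with the largest change. A match is a run of letters and not a measured binding site.

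Ciart promoter, chr2:186112197-186112496 (minus strand): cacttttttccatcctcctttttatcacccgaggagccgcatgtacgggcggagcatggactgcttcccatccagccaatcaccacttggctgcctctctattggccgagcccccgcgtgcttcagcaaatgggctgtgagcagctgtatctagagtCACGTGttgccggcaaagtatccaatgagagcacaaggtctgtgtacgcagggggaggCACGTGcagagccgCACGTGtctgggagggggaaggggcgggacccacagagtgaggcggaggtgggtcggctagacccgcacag
Tef promoter, chr7:115206577-115206876 (plus strand): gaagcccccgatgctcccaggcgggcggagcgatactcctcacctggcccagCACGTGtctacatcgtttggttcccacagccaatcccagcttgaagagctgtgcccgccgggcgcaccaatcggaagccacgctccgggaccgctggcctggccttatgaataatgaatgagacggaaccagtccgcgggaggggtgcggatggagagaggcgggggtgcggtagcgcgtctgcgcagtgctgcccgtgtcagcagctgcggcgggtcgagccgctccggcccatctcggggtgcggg
Bhlhe40 promoter, chr4:143174200-143174499 (plus strand): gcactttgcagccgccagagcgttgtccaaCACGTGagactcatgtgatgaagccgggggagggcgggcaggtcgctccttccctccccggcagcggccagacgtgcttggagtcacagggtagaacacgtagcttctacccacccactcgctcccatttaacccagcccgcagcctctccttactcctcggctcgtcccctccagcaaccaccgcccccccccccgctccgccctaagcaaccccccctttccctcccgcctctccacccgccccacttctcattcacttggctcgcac
Dbp promoter, chr1:105312006-105312305 (plus strand): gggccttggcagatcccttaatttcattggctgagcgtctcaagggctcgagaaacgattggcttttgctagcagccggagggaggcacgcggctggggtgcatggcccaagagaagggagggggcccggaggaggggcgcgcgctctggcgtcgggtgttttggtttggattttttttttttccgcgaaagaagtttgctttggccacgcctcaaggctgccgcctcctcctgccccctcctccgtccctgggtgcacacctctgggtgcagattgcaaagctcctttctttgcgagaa

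Between 14199422 and 49937173 reads fell on genes per library, and between 12060 and 13036 genes had a count. Levels are CPM, the reads of a gene scaled to the reads on all genes of its library after TMM scaling, and they compare libraries but not genes, since transcript lengths were not used. The 8 hepatocyte markers summed to 177040 to 188087 CPM in isoflurane control, 159333 to 172062 in Isoflurane-Sepsis, 137420 to 147957 in propofol control and 136106 to 143482 in Propofol-Sepsis. The 9 neutrophil and monocyte markers in the files summed to 35.8 to 116 CPM in Isoflurane-Sepsis, 37.7 to 52.6 in Propofol-Sepsis, 17.3 to 19.8 in isoflurane control and 18.8 to 26.9 in propofol control, with Ly6c at 0 in all. In pooled bulk tissue, fewer cells of a type and less RNA per cell cannot be told apart. The isoflurane and propofol libraries carry different project codes whose meaning is not stated, so a difference between the anesthetics cannot be told apart from the induction drugs or from any difference in handling. Libraries of a group all differed by more than sampling noise.

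Sepsis went with lower Dbp and Tef, the PAR bZIP activators, and higher Nfil3, the repressor at the same sites, under both anesthetics. Under propofol the calls of Tef and Nfil3 depended on which libraries were kept, as given below. Dbp stood at 37.9, 52.4, 42.4 and 43.2 CPM in the isoflurane controls and at 14.5, 7.24, 3.21 and 1.35 CPM in Isoflurane-Sepsis. The highest septic library was below every control library. Dbp fell 6.59-fold (log2 change -2.72, SE 0.529, edgeR adjusted p = 0.00308), and the septic libraries themselves differed 10.7-fold from highest to lowest. Without library 1, the highest of them, the log2 change was -3.48. Under propofol it stood at 93.3, 116, 99.8 and 104 CPM in the controls and at 23.6, 30.1, 27.4 and 28.7 CPM in Propofol-Sepsis. These groups were tight and far apart, and Dbp fell 3.75-fold (log2 change -1.91, SE 0.0986, edgeR adjusted p = 4.1e-06).

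Tef moved in the same direction by less. It stood at 42.7, 54.8, 46.8 and 51.6 CPM in the isoflurane controls and at 40.8, 27.3, 16.8 and 18 CPM in Isoflurane-Sepsis. The groups did not overlap, although library 1 of the septic group lay just under the lowest control, and Tef fell 1.89-fold (log2 change -0.92, SE 0.251, edgeR adjusted p = 0.0145). In the propofol controls it stood at 59.5, 57.5, 68.6 and 62.3 CPM, and in Propofol-Sepsis at 42.5, 61.8, 39.7 and 45.6 CPM. Here 1 septic library, library 10, lay among the controls. The fall was 1.30-fold (edgeR adjusted p = 0.0473), and it no longer passed when any of the other 7 propofol libraries was left out in turn (adjusted p from 0.0686 to 0.111) or when all 16 libraries shared a fit (adjusted p = 0.184).

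Nfil3, the bZIP repressor, had 54.9, 52.7, 53.3 and 58.2 CPM in the isoflurane controls and 72.7, 146, 262 and 133 CPM in Isoflurane-Sepsis. Every septic library was above every control, and Nfil3 rose 2.85-fold (log2 change 1.51, SE 0.324, edgeR adjusted p = 0.00490). Under propofol it had 23, 25.3, 44.8 and 18.1 CPM in the controls and 53.7, 62.8, 48.9 and 41.7 CPM in Propofol-Sepsis. Library 15, a control, lay above the lowest septic library, so these groups overlapped. The rise was 1.87-fold (log2 change 0.90, SE 0.250, edgeR adjusted p = 0.0167), and without library 14 the adjusted p was 0.0502.

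Because Dbp and Tef fell while Nfil3 rose, the ratio of activator to repressor moved further than either part. The ratio is given as log2 of CPM within a library, and only its change between groups can be read. Dbp over Nfil3 was -0.32 ± 0.23 (SD, n = 4) in isoflurane control and -4.91 ± 2.00 in Isoflurane-Sepsis. It was 1.97 ± 0.58 in propofol control and -0.91 ± 0.29 in Propofol-Sepsis. No septic library overlapped the controls of its anesthetic. The 4 Isoflurane-Sepsis libraries were spread from -6.61 to -2.32, so the poorest and richest of them differed by more than the isoflurane and propofol control means did. Tef over Nfil3 moved from -0.17 ± 0.17 to -2.53 ± 1.30 under isoflurane and from 1.24 ± 0.49 to -0.13 ± 0.22 under propofol.

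**Figure D1:**
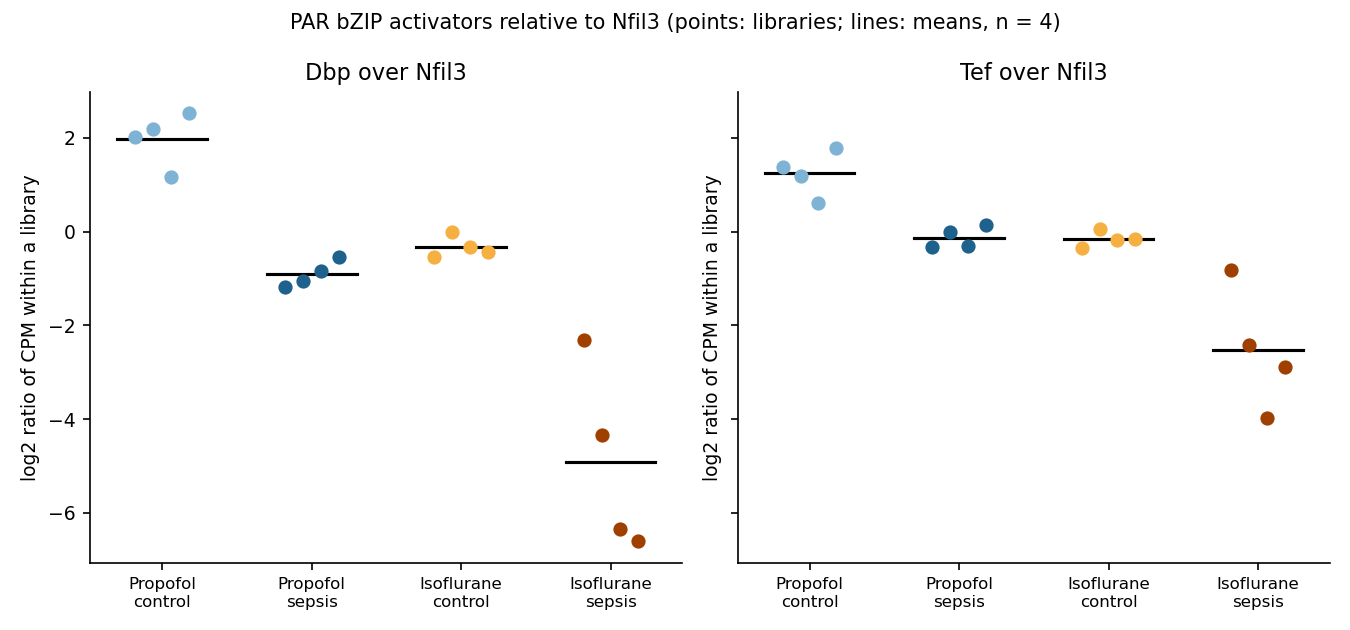
Log2 ratio of CPM within each library, Dbp over Nfil3 on the left and Tef over Nfil3 on the right, for the 4 groups on the horizontal axis. Points are libraries and lines are means of 4; the ratio of Dbp to Nfil3 ran from 1.97 in propofol control down to -4.91 in Isoflurane-Sepsis.

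Ciart and Bhlhe40, the repressors of Clock and Bmal1, moved in opposite directions. Ciart had 5.41, 8.07, 6.49 and 7.08 CPM in the isoflurane controls and 5.01, 2.91, 0.827 and 0.353 CPM in Isoflurane-Sepsis, the last from 6 reads. The groups did not overlap, but the septic libraries differed 14.2-fold among themselves. Ciart fell 2.93-fold (log2 change -1.55, SE 0.556, edgeR adjusted p = 0.0431), a call that was lost when library 2, 3, 5, 6, 7 or 8 was left out (adjusted p from 0.0654 to 0.0963). Without library 1 the log2 change was -2.33 (edgeR adjusted p = 0.00426). Under propofol it had 13.5, 12.8, 12.1 and 18.5 CPM in the controls and 7.27, 10.7, 11.4 and 11.1 CPM in Propofol-Sepsis. All septic libraries were lower, by 1.40-fold (edgeR adjusted p = 0.0428), again with the call lost without library 9, 11, 12, 13, 14 or 16 (adjusted p from 0.0506 to 0.111) and with all 16 libraries in a fit (adjusted p = 0.328).

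Bhlhe40 had 167, 155, 152 and 174 CPM in the isoflurane controls and 226, 294, 483 and 248 CPM in Isoflurane-Sepsis. No libraries overlapped and Bhlhe40 rose 1.96-fold (log2 change 0.97, SE 0.224, edgeR adjusted p = 0.00682). Under propofol it had 125, 125, 116 and 129 CPM in the controls and 140, 180, 140 and 132 CPM in Propofol-Sepsis. Every septic library was again higher, yet the difference of 0.26 on the log2 scale (95% interval 0.03 to 0.50) did not pass (edgeR adjusted p = 0.0669). It passed with DESeq2 (adjusted p = 0.0399) and without library 12 (adjusted p = 0.0389), and over all alternatives the adjusted p ran from 0.0389 to 0.242. The neutrophil and monocyte markers were higher in both septic groups, as Nfil3 was. Of these markers 5 of 6 tested were called higher under isoflurane, where 25.7% of all genes were. Under propofol 4 of 7 were, where 20.4% of all genes were. The part of those cells in these results was not tested.

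Usp2, the deubiquitinase, was chosen for its fall. It had 7.72, 14.8, 10.2 and 10.3 CPM in the isoflurane controls and 0.744, 1.55, 0.517 and 0.236 CPM in Isoflurane-Sepsis, from 4 to 24 reads. Under propofol it had 16.6, 18.9, 23.1 and 20.8 CPM in the controls and 2.44, 3.43, 2.96 and 3.78 CPM in Propofol-Sepsis. The groups lay apart under both anesthetics, by 14.2-fold under isoflurane and 6.19-fold under propofol. The log2 ratio of Usp2 to Dbp in the same library is given as a description, since Usp2 was chosen for the size of its fall. It was -2.06 ± 0.19 in isoflurane control and -2.92 ± 0.93 in Isoflurane-Sepsis, and -2.39 ± 0.22 in propofol control and -3.14 ± 0.15 in Propofol-Sepsis. The propofol groups did not overlap in this ratio, while the Isoflurane-Sepsis libraries ran from -4.29 to -2.22 and overlapped their controls.

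Rgs16, the regulator of G protein signalling, was also chosen for its fall and varied widely among the controls. It had 1.82, 60.6, 36.5 and 15.2 CPM in the propofol controls, a 33.4-fold range within 1 group. In Propofol-Sepsis it had 0.624, 0.810, 0.700 and 1.20 CPM, from 11 to 39 reads, all below the lowest control. That control, library 13, lay nearest to the septic libraries and rested on 28 reads. The log2 change was -5.02, and between -5.41 and -4.36 with a library left out, -4.36 being without library 14, the highest control. With limma-voom it was -4.26. Under isoflurane it had 4.99, 3.64, 13.9 and 1.51 CPM in the controls and 0.744, 1.68, 2.64 and 1.30 CPM in Isoflurane-Sepsis. These groups overlapped, since library 8, a control, was below libraries 2 and 3 of the septic group, and the fitted log2 change was -1.87. Without library 7, the highest control, it was -1.04.

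**Figure D2:**
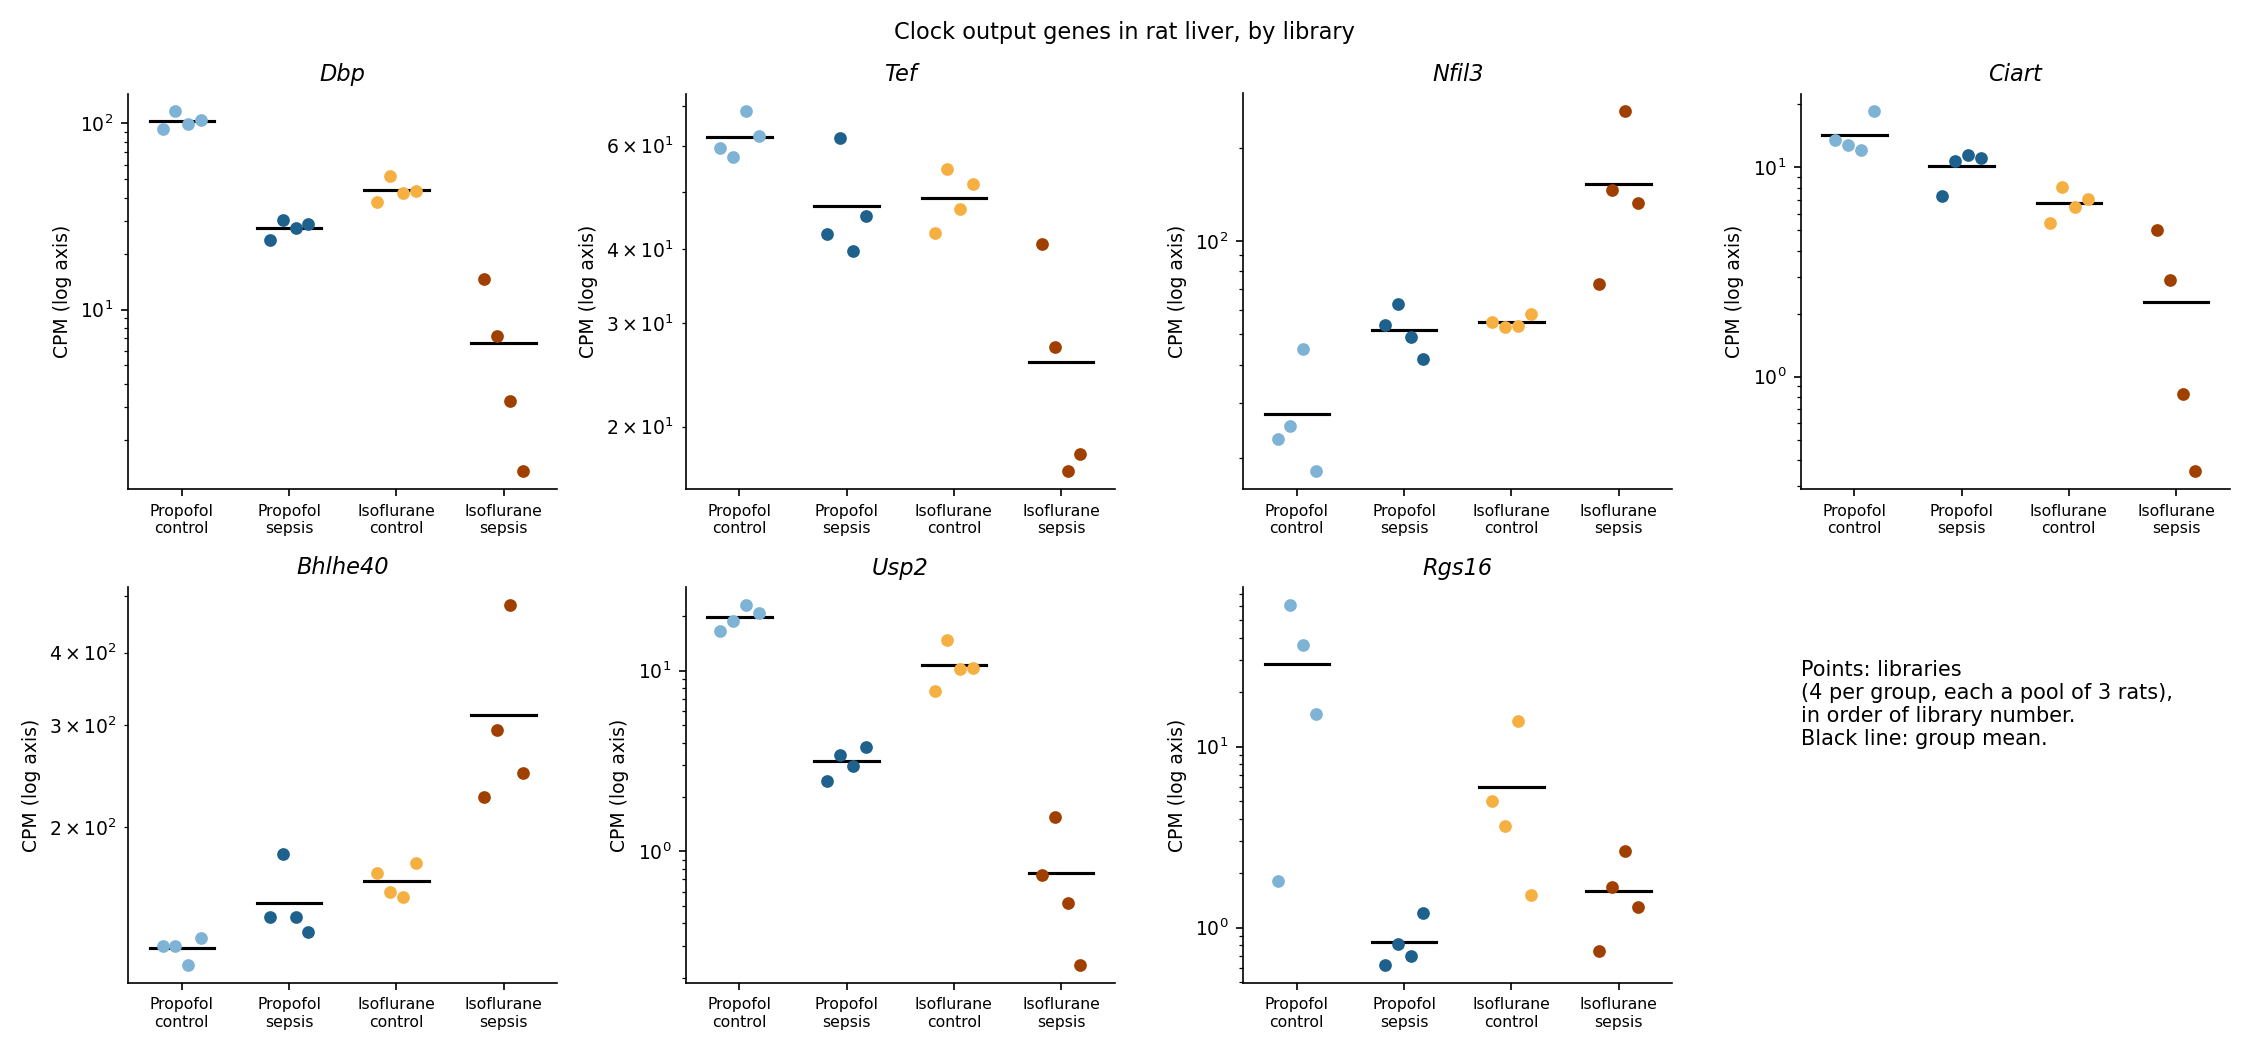
CPM on a log axis for each of the 7 genes, with 1 panel per gene and the 4 groups on the horizontal axis. Points are libraries of 3 pooled rats in order of library number and black lines are group means. Dbp separates all 4 groups, and so does Usp2, which was chosen for its fall. Nfil3 and Bhlhe40 are highest in Isoflurane-Sepsis, and Rgs16 spreads from 1.82 to 60.6 CPM in propofol control.

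Counted together, all 5 tested genes were called under isoflurane, 3 lower and 2 higher, where 50.0% of 10361 genes tested were called (24.4% lower and 25.7% higher). Their groups did not overlap in 5 of 5, against 48.8% of all genes. Under propofol 4 of 5 were called, 3 lower and 1 higher, where 42.1% of 10348 genes were called (21.7% lower and 20.4% higher), and the groups did not overlap in 3 of 5, against 41.6%. The members had been chosen with earlier results of these data known, and no test was made of them as a set. Their sizes were uneven: Dbp was the 32nd lowest of 10361 fold changes under isoflurane and the 72nd lowest of 10348 under propofol, whereas Tef was 804th and 1997th. The median change of all genes was 0.01 under isoflurane.

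**Figure D3:**
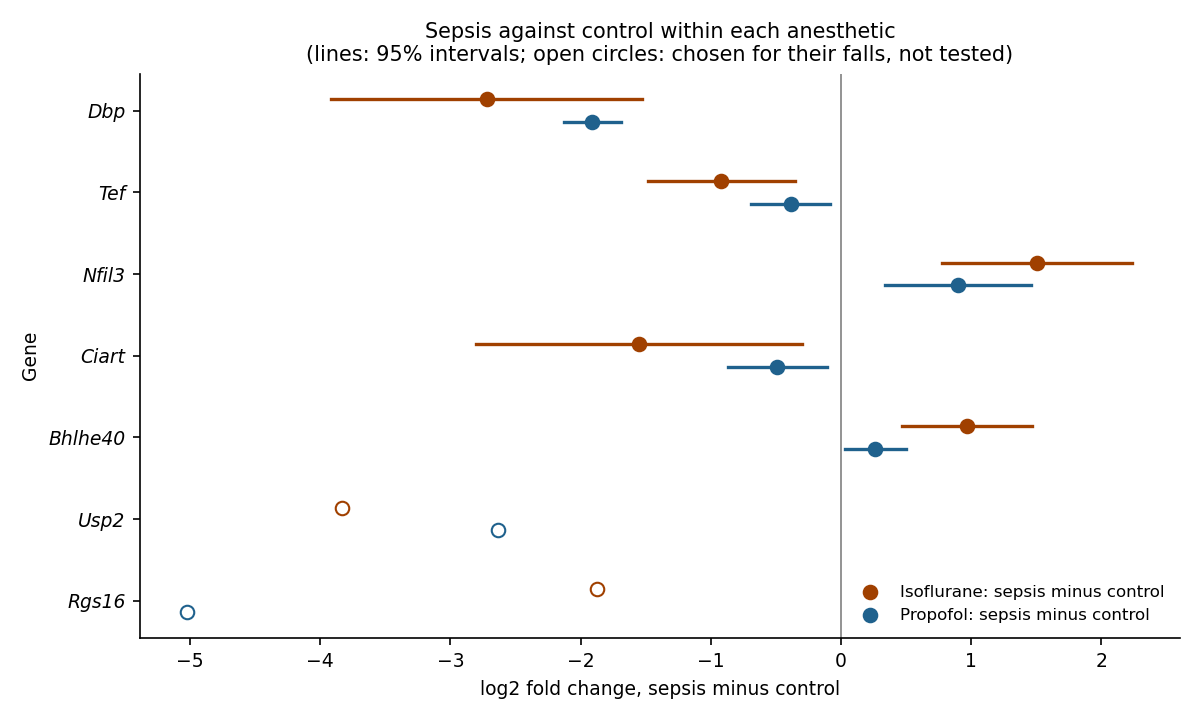
Log2 fold change of sepsis minus control on the horizontal axis for each gene, isoflurane in brown and propofol in blue. Lines are 95% intervals of the 5 tested genes, and open circles are Usp2 and Rgs16, which were chosen for their falls and not tested; Dbp is lowest of the tested genes at -2.72 and -1.91.

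The response to sepsis was then set against the anesthetic, as the difference of both log2 changes, isoflurane minus propofol, in a fit of all 16 libraries. It was -0.81 for Dbp (95% interval -1.93 to 0.30, edgeR adjusted p = 0.355), -0.54 for Tef (-1.20 to 0.12, adjusted p = 0.300) and 0.59 for Nfil3 (-0.33 to 1.52, adjusted p = 0.415). For Ciart it was -1.06 (-2.29 to 0.17, edgeR adjusted p = 0.279) and for Bhlhe40 0.69 (0.15 to 1.23, adjusted p = 0.125). Each estimate pointed to a stronger change under isoflurane, but 0 of 5 were called by edgeR, DESeq2 or limma-voom, where edgeR called 2.72% of 10621 genes. At an unadjusted p below 0.05, edgeR had 1 of the 5, Bhlhe40, DESeq2 had 1 and limma-voom had 3. The intervals for Dbp and Ciart reach down to -1.93 and -2.29, so even a large difference could not be told from none with these libraries.

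That outcome changed when library 1 of Isoflurane-Sepsis was left out. Without it 4 of 5 genes were called, Dbp with a difference of -1.60 (edgeR adjusted p = 0.0142), Tef -0.86 (adjusted p = 0.0242), Ciart -1.87 (adjusted p = 0.0218) and Bhlhe40 0.82 (adjusted p = 0.0304). The number of genes called among all genes then went from 289 to 1615. No other single library brought a member past the threshold. Library 1 had the highest Dbp, Tef and Ciart of its group and the lowest Nfil3, Bhlhe40 and Rgs16. Leaving it out therefore removes the weakest response of the group in Dbp, Tef, Ciart and Bhlhe40. A check for outliers within each group (Dixon's ratio) flagged 0 values of the members. Library 1 also had the lowest sum of neutrophil and monocyte markers, 35.8 CPM. Library 3, with the highest sum of 116 CPM, had the highest Nfil3, Bhlhe40 and Rgs16 and the lowest Tef. The lowest Dbp, Ciart and Usp2 of the group were in library 4. In Propofol-Sepsis, library 10 had the highest marker sum, 52.6 CPM, and the highest Nfil3 and Bhlhe40 but also the highest Dbp and Tef. Library 12 there had the lowest sum, 37.7 CPM, and the highest Rgs16. The part of those cells in the spread was not tested. For Usp2 and Rgs16 the same difference was -1.21 and 3.16, given as values only.

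In rats without sepsis the anesthetics already differed in every tested member. These comparisons use the same control libraries as those above and are not independent of them. Mean Dbp was 44.0 ± 6.10 CPM (SD, n = 4) in isoflurane control and 103 ± 9.39 in propofol control, 2.34-fold lower under isoflurane (log2 -1.23, SE 0.0994, edgeR adjusted p = 1.4e-05). Ciart was 6.76 ± 1.11 against 14.2 ± 2.90 CPM (log2 -1.07, edgeR adjusted p = 3.5e-04) and Tef 49.0 ± 5.32 against 62.0 ± 4.83 CPM (log2 -0.33, adjusted p = 0.00817). The repressors that rose with sepsis were the ones higher under isoflurane, Nfil3 at 54.7 ± 2.46 against 27.8 ± 11.7 CPM (log2 0.98, edgeR adjusted p = 0.00406) and Bhlhe40 at 162 ± 10.5 against 124 ± 5.18 CPM (log2 0.39, adjusted p = 3.5e-04). All 5 were called and all 5 did not overlap, where 43.3% of 10314 genes were called and 40.3% did not overlap. When all 16 libraries shared 1 estimate of spread, only Dbp and Nfil3 stayed past the threshold, with an adjusted p of 0.275 for Tef, 0.0514 for Ciart and 0.118 for Bhlhe40. Some cell type markers were called between these groups too, beside the 43.3% of all genes. Of 8 hepatocyte markers 7 were called higher under isoflurane and 0 lower, with a median of 0.39; scaled by library totals 4 were called and 2 of the 8 changed sign. Of 6 neutrophil and monocyte markers tested 2 were called lower (S100a8 and Itgam), and of 6 Kupffer cell markers 2 (Vsig4 and Cd5l). Of 5 endothelial markers 1 was called lower (Kdr), and of 2 lymphocyte markers 1 (Cd8a). Among 6 stellate cell markers 1 was called higher (Col3a1) and 1 lower (Reln), and 1 of 2 bile duct markers was higher (Epcam). Their part in the members' differences was not tested. Usp2 had 10.8 ± 2.95 against 19.8 ± 2.74 CPM, and Rgs16 6.00 ± 5.43 against 28.5 ± 25.7 CPM.

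Among septic rats the contrast had the same sign for all 5. Dbp was 6.58 ± 5.84 CPM in Isoflurane-Sepsis and 27.4 ± 2.81 in Propofol-Sepsis (log2 -2.05, edgeR adjusted p = 0.0326), and Ciart 2.27 ± 2.13 against 10.1 ± 1.92 CPM (log2 -2.14, adjusted p = 0.0380). Nfil3 was 153 ± 79.2 against 51.8 ± 8.87 CPM (log2 1.57, edgeR adjusted p = 0.0198) and Bhlhe40 313 ± 117 against 148 ± 21.7 CPM (log2 1.08, adjusted p = 0.0204). Tef, at 25.7 ± 11.1 against 47.4 ± 9.92 CPM, did not pass (log2 -0.88, edgeR adjusted p = 0.0561), but it did with DESeq2 (adjusted p = 0.0140) and limma-voom (adjusted p = 0.0433). Thus 4 of 5 were called, where 19.3% of 10272 genes were, and 4 of 5 did not overlap, where 25.1% did not. None of the 5 was called without library 9, 11 or 12, when 289, 314 and 249 genes were called in all, and 2 were called without library 2 or 3. Without library 1 the log2 difference was -2.82 for Dbp and -2.92 for Ciart. Of 8 hepatocyte markers 3 were called higher under isoflurane, and 0 with library totals, where 3 of the 8 changed sign. Of 5 endothelial markers 4 were called lower, and of 6 Kupffer cell markers 1 higher (Cd163). No marker of the other cell type lists was called. The part of these cells in the difference was not tested.

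The order of the group means differed among the genes. Dbp, Tef and Usp2 ran from propofol control through isoflurane control and Propofol-Sepsis to Isoflurane-Sepsis. For Dbp and Usp2 no neighbours in that order overlapped, while for Tef only the first pair was apart. Usp2 was chosen for its fall, so its separation is a description only. How many of all genes separate the 4 groups in this way was not counted. Nfil3 and Bhlhe40 ran from Isoflurane-Sepsis through isoflurane control and Propofol-Sepsis to propofol control. Isoflurane control and Propofol-Sepsis overlapped in both, and the propofol groups overlapped for Nfil3. Ciart placed Propofol-Sepsis above isoflurane control, and these overlapped. The log2 ratio of Ciart to Dbp was -2.71 ± 0.08 in isoflurane control and -2.87 ± 0.30 in propofol control. It was -1.69 ± 0.31 in Isoflurane-Sepsis and -1.46 ± 0.19 in Propofol-Sepsis. The septic libraries did not overlap the controls in this ratio, and both septic groups lay above both control groups. Tef, too, fell less than Dbp. The log2 ratio of Dbp to Tef went from -0.16 ± 0.08 to -2.38 ± 0.97 under isoflurane and from 0.73 ± 0.20 to -0.77 ± 0.22 under propofol. For Rgs16 every neighbour overlapped.

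The core loop upstream of these outputs was read from 15 tested genes of a list of 16. Under isoflurane 7 were called higher, Arntl, Clock, Per1 and Rora among them, and 3 lower (Per2, Per3 and Cry2), with a median change of 0.33, where 50.0% of all genes were called. Under propofol 4 were called higher (Arntl, Clock, Per1 and Rora) and 3 lower (Per3, Cry2 and Timeless), with a median of 0.14, where 42.1% of all genes were called. The activator Arntl had 31.0 ± 14.2 CPM in Isoflurane-Sepsis against 9.50 ± 2.21 in control (log2 1.73, edgeR adjusted p = 0.00468) and 10.1 ± 1.58 in Propofol-Sepsis against 2.98 ± 1.88 (log2 1.75, adjusted p = 0.00456). Arntl was thus higher where Dbp was lower, and this held between the control groups too (log2 1.68, edgeR adjusted p = 0.00285). Per2 fell by 1.66 on the log2 scale under isoflurane (edgeR adjusted p = 0.00145) and Cry2 by 1.27 (adjusted p = 0.00116), whereas Per1 rose by 0.48 (adjusted p = 0.00137). Nr1d1, which encodes the repressor of Arntl and Nfil3 known as Rev-erb alpha, was not called in either, at 79.0 ± 30.0 against 63.6 ± 5.61 CPM under isoflurane and 84.2 ± 5.35 against 89.5 ± 27.1 CPM under propofol. In the difference between anesthetics 0 of 15 were called by edgeR, DESeq2 or limma-voom, with 4, 4 and 2 at an unadjusted p below 0.05.

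Genes known as targets of PAR bZIP factors were read from 13 tested genes of a list of 14. Under isoflurane 7 were called lower and 1 higher, with a median of -0.95, where 24.4% of all genes were called lower and 25.7% higher. Under propofol 8 were called lower and 1 higher, with a median of -0.76, where 21.7% of all genes were called lower and 20.4% higher. Those lower under both were Alas1, the xenobiotic receptor Nr1i3, Cyp7a1, Cyp2b1, Cyp2b2, Cyp2c11 and Cyp3a2. Alas1 starts heme synthesis, Cyp7a1 catalyses the rate-limiting step of bile acid synthesis, and the other Cyp enzymes named oxidize drugs and steroids. Alas1 went from 159 ± 11.5 to 72.7 ± 4.07 CPM under isoflurane (log2 -1.11, edgeR adjusted p = 4.0e-05) and from 273 ± 53.6 to 72.6 ± 22.2 CPM under propofol (log2 -1.90, adjusted p = 1.9e-04). Por, the electron donor of these enzymes, was called lower under propofol and had 489 ± 229 against 957 ± 35.4 CPM under isoflurane (edgeR adjusted p = 0.0502). The efflux pump Abcb1b went the other way, up by 1.87 under isoflurane (edgeR adjusted p = 0.00417) and by 2.79 under propofol (adjusted p = 0.00123). Ppara, Cyp4a1, Cyp4a2 and Cyp4a3 were not called in either. Between the septic groups, where Dbp was lower under isoflurane, 2 of 12 targets tested were called lower (Cyp4a1 and Cyp4a2) and 0 higher. Their median was -0.04, and 19.3% of all genes were called. Between the control groups 7 of 13 were called lower under isoflurane and 3 higher, with a median of -0.53, where 43.3% of all genes were called. The Cyp2b and Cyp4a genes have near-identical copies, and how shared reads were counted is not given in the sources used here. In the difference between anesthetics 0 of 13 were called by edgeR and limma-voom, each with 1 at an unadjusted p below 0.05, and 1 by DESeq2.

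**Figure D4:**
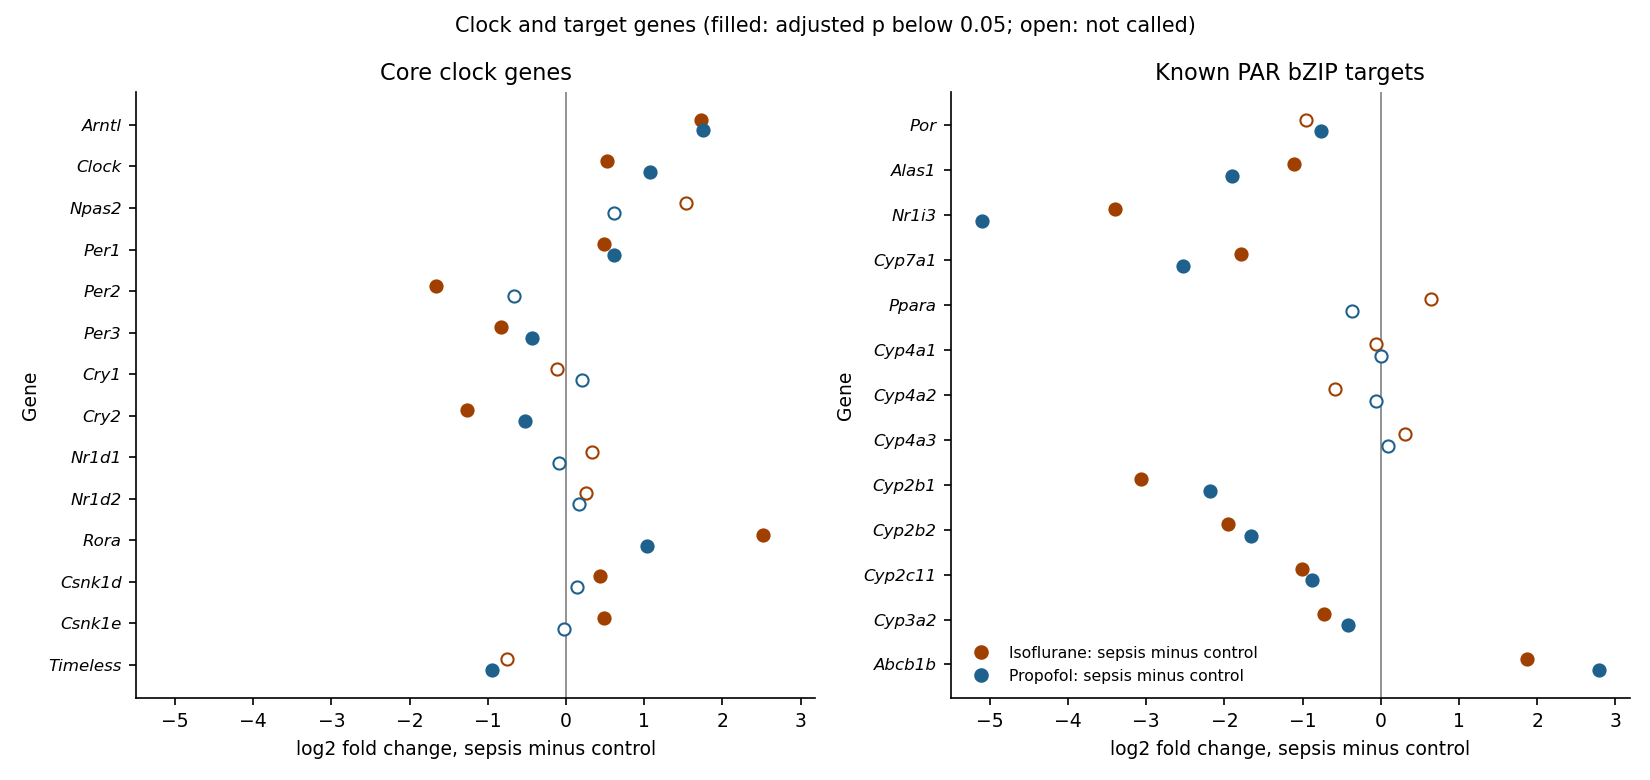
Log2 fold change of sepsis minus control for core clock genes on the left and known PAR bZIP targets on the right, isoflurane in brown and propofol in blue. Filled points have an adjusted p below 0.05 and open points do not, and a clock gene that is not reported by name is left out; Arntl is at 1.73 and 1.75, and most targets lie left of 0 while Abcb1b is at 1.87 and 2.79.

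Other rhythmic liver genes went both ways. Of 15 tested, 7 were called higher and 3 lower under isoflurane, and 4 higher and 4 lower under propofol, where 50.0% and 42.1% of all genes were called. The NAD-producing enzyme Nampt rose under both, from 693 ± 38.3 to 1509 ± 194 CPM (edgeR adjusted p = 1.0e-04) and from 720 ± 84.1 to 1135 ± 108 CPM (adjusted p = 7.3e-04). Gys2, the liver glycogen synthase, fell under both, by 0.85 (edgeR adjusted p = 4.0e-04) and 0.91 (adjusted p = 7.1e-04) on the log2 scale. The transferrin receptor gene Tfrc differed between the anesthetics in its response (log2 difference 1.26, edgeR adjusted p = 0.0463). It was the only edgeR call of 15, while DESeq2 called 3 of the list and limma-voom 0.

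Usp2 and Rgs16 each belong to a large gene family. Of 36 other ubiquitin-specific protease genes tested, 10 were called higher and 4 lower under isoflurane, from -0.55 (Usp30) to 2.79 (Usp18). Under propofol 9 were called higher and 3 lower, from -0.53 (Usp30) to 1.90 (Usp18). Of all genes 50.0% and 42.1% were called, and the shares were not tested against each other. Usp18, an interferon-induced member, rose from 4.92 ± 0.787 to 33.2 ± 12.8 CPM under isoflurane (edgeR adjusted p = 1.3e-04). Of 11 other RGS genes tested under isoflurane, 4 were called higher (Rgs2, Rgs4, Rgs12 and Rgs19) and 0 lower, with 4 called by DESeq2 and 4 by limma-voom, also all higher. Under propofol 10 were tested, with 4 called higher (Rgs1, Rgs2, Rgs4 and Rgs12) and 2 lower (Rgs3 and Rgs18), again beside 50.0% and 42.1% of all genes. Rgs4 rose from 3.08 ± 1.55 to 18.4 ± 6.02 CPM (edgeR adjusted p = 9.3e-04) and from 1.69 ± 0.325 to 14.1 ± 3.77 CPM (adjusted p = 2.5e-05). Rgs3 had 13 ± 7.80 CPM in propofol control and 4.33 ± 0.532 in Propofol-Sepsis (edgeR adjusted p = 0.00872). That Usp2 and Rgs16 lie below their families follows from how they were chosen.

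**Figure D5:**
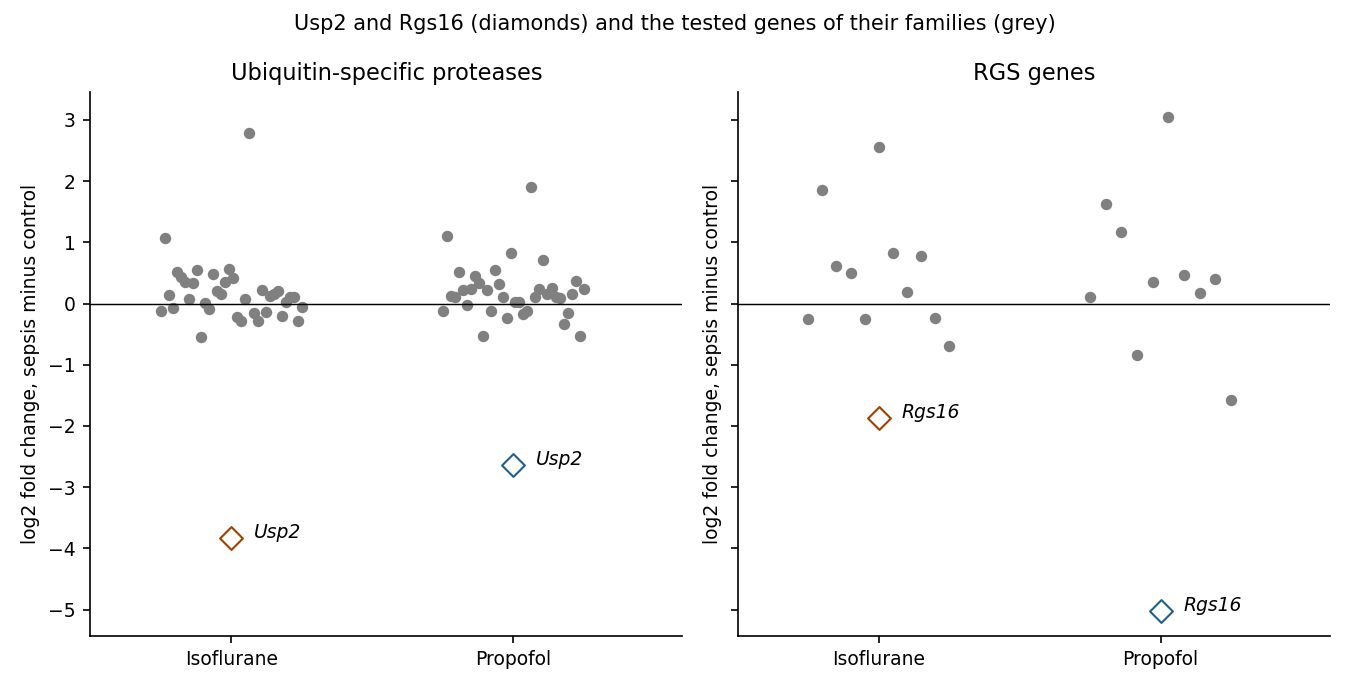
Log2 fold change of sepsis minus control for ubiquitin-specific protease genes on the left and RGS genes on the right, under isoflurane and propofol. Grey points are the other tested genes of each family, spread sideways for sight only, and diamonds are Usp2 and Rgs16, which were chosen for their falls.

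The genes most like each member across the 16 libraries were found by the root mean square difference of centred log2 CPM. The search covered 8886 genes and left out the members themselves, so their likeness to each other was not ranked. For Tef these were Per3 at 0.15 and Cry2 at 0.19, both clock repressors, and Rab3d at 0.22, against 0.58 for Tef's own spread. Bhlhe40 (own spread 0.53) was nearest to Zfp281 at 0.13, Rnf2 at 0.14 and Npepps at 0.15, and Nfil3 (0.95) to Jund at 0.22, Rnf125 at 0.26 and Ndrg1 at 0.27. Dbp (1.74) was nearest to Sdr42e1 at 0.45, with Extl1 and Pald1 at 0.49, and Ciart (1.40) to Phgdh at 0.51, Pfkfb1 at 0.53 and Crym at 0.58. Usp2 (1.88) was nearest to Cyp2b1 at 0.53, Extl1 at 0.57 and Akr1c14 at 0.60. Rgs16 (1.96) had no close match, with Fgf21 at 1.01, Adh1 at 1.17 and Acot12 at 1.20. All libraries of a group share their treatment, so likeness over 16 libraries is mostly likeness over 4 groups.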

How the data were processed

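The authors deposited counts, whole numbers of reads per gene symbol without normalization, for 16 libraries of polyadenylated RNA made with a kit that keeps the strand. The submitters' processing notes name STAR and rn5, without saying for what. The sources used here do not give the counting program or the annotation. Entries for reads outside genes (21.61% to 25.39% of a library) and for ambiguous reads (1.074% to 1.351%) entered neither library sizes nor tests. Groups came from the sample labels. With 14199422 to 49937173 reads on genes, genes under about 1 CPM rest on few reads.

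Genes kept by filterByExpr (minimum count 10, minimum total 15) were tested by edgeR 4.0.16 (quasi-likelihood test, TMM scaling, R 4.3.3). Each comparison fitted its own 8 libraries, and the difference between anesthetics all 16. P-values were adjusted by Benjamini and Hochberg over all genes, and an adjusted p below 0.05 was called. Fitted log2 changes use edgeR's default small prior count, and centred log2 CPM a prior count of 2. The alternatives were RLE size factors, library totals, DESeq2 1.42.0 (which the study used), limma-voom (limma 3.58.1), no limit on low counts, all 16 libraries in 1 fit and each library left out. The code was tested on simulated data. Intervals are at 95%.

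All members were named whatever their values. Genes of the lists (core clock, PAR bZIP targets, other rhythmic genes, RGS and USP families, cell type markers) were named where a list had few calls, with others chosen after their values were seen. A gene of the core clock list is not reported here by name and remains in the counts. Neighbouring patterns were the 3 nearest genes, members excluded, whose mean log2 CPM was 1 or more. The members and lists were chosen with earlier results of these data known. Promoters came from RefSeq, build GRCr8, matched by symbol; 14175 of the 17055 symbols in the files were found in that reference. Calls with sepsis in the cell type lists not described in the report were as follows: of 6 Kupffer cell markers 4 were called higher and 1 lower under isoflurane and 2 and 1 under propofol, of 5 endothelial markers 0 and 3, and 1 and 2, and of 6 stellate cell markers 1 and 1, and 0 and 3. Of 2 bile duct markers 1 was called higher under isoflurane and 0 under propofol, and of 2 lymphocyte markers 2 and 0. Of 8 hepatocyte markers 1 was called higher and 2 lower under isoflurane, and 2 and 1 under propofol. Beside these, 25.7% of all genes were called higher and 24.4% lower under isoflurane, and 20.4% and 21.7% under propofol.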

Additional observations from a re-analysis of the deposited data

How the results depend on the processing

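No direction of a member reversed under any alternative, in 539 values of single members, 385 of them of the 5 tested genes. With a library left out 198 of these kept their side of the threshold, 36 lost it and 6 gained it; under the other settings 135 kept it, 5 lost it and 5 gained it. The number of tested members called was 5 under isoflurane, 4 to 5 with a library left out. Under propofol it was 4, but 2 when all 16 libraries shared a fit and 1 to 4 with a library left out. For the difference between anesthetics it was 0, and 0 to 4 with a library left out. Between the control groups it was 5, but 2 with all 16 libraries in a fit, and 5 with any library left out. Between the septic groups it was 4, and 0 to 5 with a library left out. The cause of these changes was not tested. Scaling by library totals shifted the median of all genes by -0.15 in both comparisons of isoflurane with propofol, and the members moved with it without changing direction. No paired analysis was possible because the labels number the libraries from 1 to 16 and the groups share no replicate number. With 4 pools a group, and 4 to 24 reads on Usp2 in Isoflurane-Sepsis, low levels are known only roughly.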
